A study of Sus scrofa with 92 samples.

Results

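Chemokines, interleukins and their receptors were followed through 9 tissues of pigs of 10 breeds. The genes were taken by symbol alone: every gene whose pig symbol starts with CCL, CXCL, CCR or CXCR and a digit, or with IL and a digit. This gave 77 of the 25322 gene IDs in the tables, of which 11804 carry a symbol. They fall into 13 chemokines, 10 chemokine receptors, 22 interleukins, 31 interleukin receptors or receptor chains, and IL4I1, an amino acid oxidase that carries the IL prefix but is not a cytokine.

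Chemokines are small secreted proteins that bind G protein coupled receptors on leukocytes and set the direction in which these cells migrate. Interleukins are secreted signals between leukocytes and between leukocytes and other cells. They act through receptors built of several chains, many of which share a common chain and signal through Janus kinases and STAT factors, while the IL1 and IL18 branch signals through MYD88. The spleen holds organized zones of B and T cells, and CCR7 and its ligand CCL19 are known for placing T cells in them.

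All pigs were 60 days old. By general knowledge of the breed names, which is not in the labels, 5 breeds are of Western origin (Large White, Landrace, Berkshire, Hampshire, Piétrain) and 5 of Chinese origin (Tibetan wild boar, Rongchang, Meishan, Jinhua, Bamei). Total RNA was sequenced in 83 libraries of single tissues: 10 each of spleen, psoas major and longissimus dorsi, 9 each of ovary, kidney, liver, heart and subcutaneous adipose, and 8 of lung. A further 9 libraries were mixtures of tissues of 1 breed, whose composition the labels do not give. The lung of Rongchang was missing, and for Tibetan wild boar only the spleen and the muscles were there. Each breed gave 1 library per tissue, so the breeds serve as replicates. Pooling of animals, or the use of 1 animal for all tissues of a breed, is not stated. No treatment was given in the labels.

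Levels are FPKM, fragments scaled to transcript length and library size, scaled between the 83 tissue libraries by median ratios, and given as mean ± SD or as lowest, median and highest library. The absolute depth is unknown. Relative depth ran from 0.711 to 1.39 of the median library, total FPKM from 519075 to 2196138, and the number of genes at 1 FPKM or more from 10175 to 14561. Defining markers of each tissue were highest in the tissue named on the label, except that ALB was listed at 0 in livers, where AHSG averaged 16490, and that the muscle actin ACTA1 was called for heart. Because an abundant gene can be listed at 0, a value of 0 is reported here as listed and not as absence.

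A gene was called for a tissue when it exceeded its level in all 7 other tissue classes, both muscles forming 1 class, with every log2 difference above 1 and the largest of the 7 p-values below 0.05 after Benjamini-Hochberg adjustment in limma. Tested were the 58 of the 77 genes that reached 1 FPKM in 3 or more libraries. Of these, 15 were called for a tissue, or 25.9%, against 22.9% of all 17207 genes tested, so the family was called for some tissue about as often as other genes. The tissue was not spread evenly: 11 of the 58, or 19.0%, were called for spleen, against 2.89% of all genes. One gene each was called for kidney (2.67% of all genes), liver (4.96%), lung (1.44%) and ovary (5.43%), and none for heart (1.37%), skeletal muscle (2.44%) or subcutaneous adipose (1.69%). By role, the calls took 3 of 12 tested chemokines, 2 of 10 chemokine receptors, 2 of 9 interleukins and 8 of 26 interleukin receptor chains. All 58 differed among tissue classes by limma's F test (adjusted p below 0.05), as did 99.0% of all genes.

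**Figure D1:**
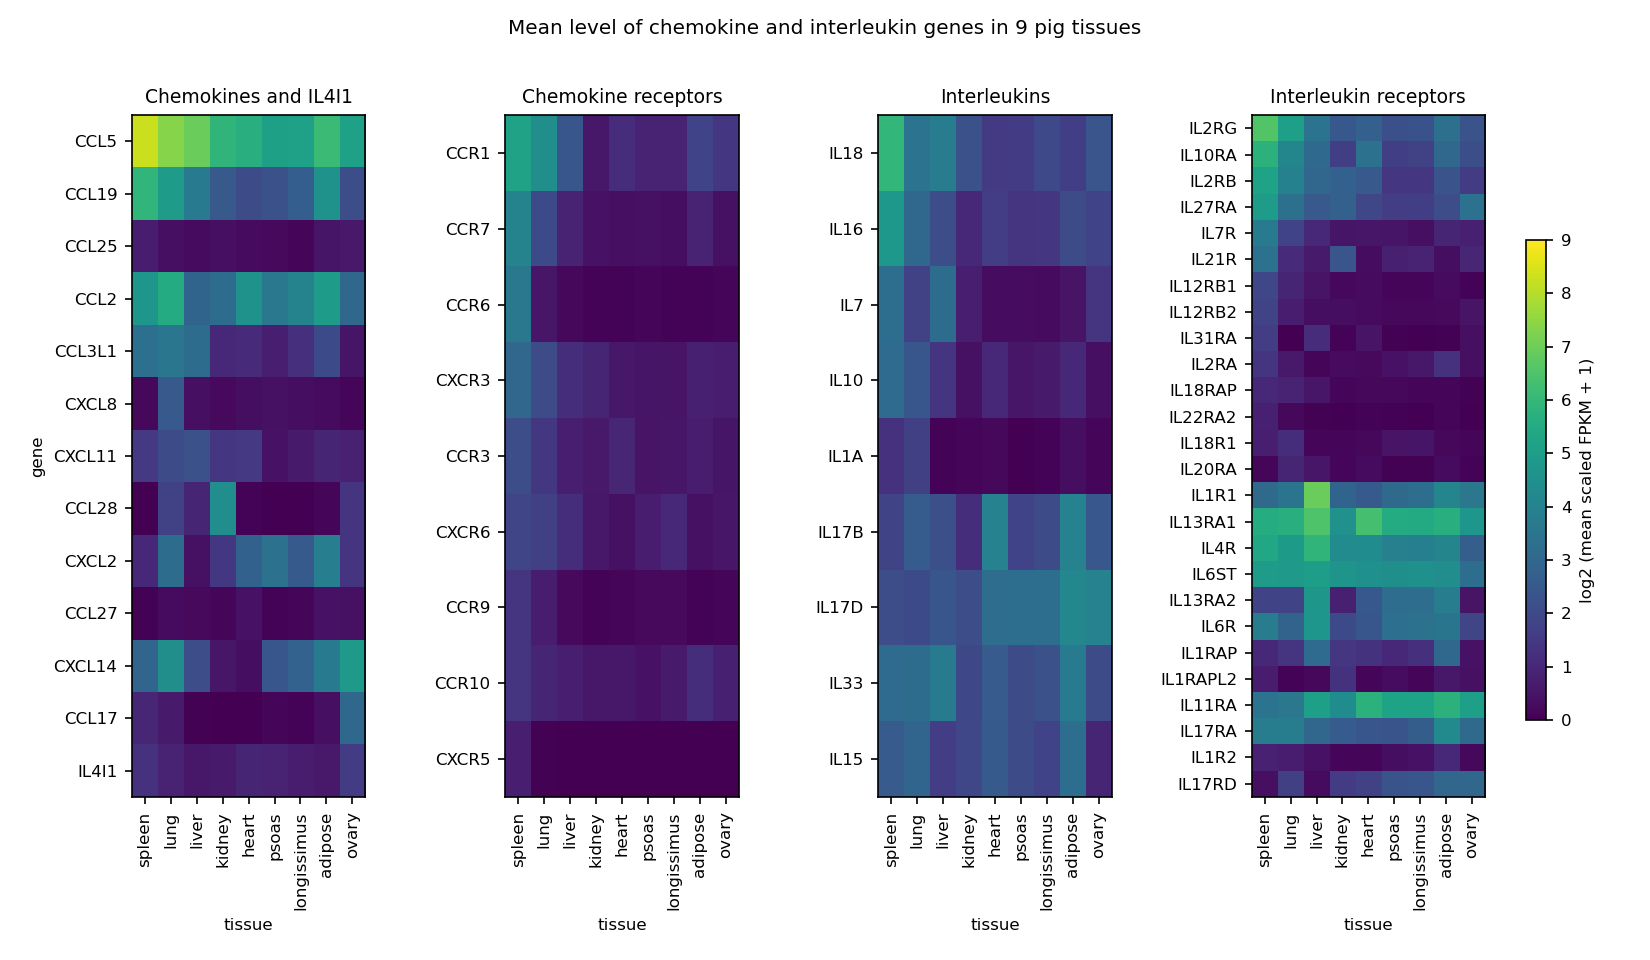
Colour gives log2 of the mean scaled FPKM plus 1 of each tested gene reported here (vertical) in each tissue (horizontal), in 4 panels by role, genes ordered within a panel by the tissue of their highest mean. Of the 58 tested genes 28 were highest in spleen, and CCL5, with a mean of 309 in spleen, is the brightest cell.

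Spleen had the highest log2 mean for 28 of the 58 tested genes, or 48.3%, compared with 15.0% of all genes with a symbol. Liver followed with 9, lung with 7, adipose with 6 and ovary with 4. With FPKM as deposited, without scaling, the tissue of the highest mean changed for 12 of the 58, and the liver count went from 8 by mean level to 3. The genes concerned were CCL25, CCL27, CXCL11, IL11RA, IL13RA1, IL15, IL17B, IL17D, IL17RA, IL1RAP, IL4R and IL6ST, so their first place depends on the scaling. In whole tissues, fewer cells of a type and less RNA per cell cannot be told apart.

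Chemokines were spread over the tissues. CCL5, which attracts T cells and NK cells, had the highest mean of all 77 genes over the 83 libraries, 97.2 scaled FPKM. It ranged in spleen from 91.2 to 785 with a median of 230, in lung from 77.1 to 334 with a median of 143, in liver from 47.5 to 398 with a median of 81.0, and in the other 6 tissues from 15.4 to 210. The tissues overlapped widely and Rongchang held the top library in 8 tissues, the lung being absent for that breed. The spleen stood 0.65 ± 0.17 (log2, SE) above lung (adjusted p = 0.00286, limma), short of the log2 difference of 1 set for a call. CCL19, the ligand of CCR7, was likewise highest in spleen at 60.1 ± 28.0 (n = 10), then in lung at 29.4 ± 10.1 (n = 8) and adipose at 22.9 ± 12.3 (n = 9). Its spleen libraries (26.0, 50.8 and 122 as lowest, median and highest) overlapped those of lung, and the log2 difference of 0.95 ± 0.21 again missed the size set for a call.

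CCL28, a chemokine known from mucosal epithelia, was a kidney gene in these tissues. Its level in kidney was 12.5 at the lowest, 19.1 at the median and 30.1 at the highest of 9 breeds. In lung, the nearest tissue, it was 0.682, 2.18 and 5.47, in ovary 0.416, 1.27 and 2.76, and in liver 0.567, 0.808 and 1.57. Every kidney library stood above every library of any other tissue. The kidney exceeded lung by 2.71 ± 0.13 on the log2 scale (adjusted p = 4.33e-29, limma). In spleen and in both muscles CCL28 was listed at 0 in most libraries and did not pass 0.0988. CCL17, a ligand of CCR4, was highest in ovary, where it was 1.59 in Meishan, 6.03 at the median and 15.9 in Jinhua. It was listed at 0 in all 9 hearts, and reached 2.13 in spleen and 3.47 in lung, both in Bamei. Ovary and these 2 tissues therefore overlapped by single libraries, and ovary exceeded spleen by 1.95 ± 0.18 (log2, adjusted p = 1.33e-15, limma).

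CXCL8, the main neutrophil attractant, was called for lung. The 8 lungs held 1.06, 2.92 and 14.8 as lowest, median and highest, the top library being Bamei. Elsewhere no library passed 1.12, in longissimus dorsi of Jinhua, which is just above the lowest lung, that of Piétrain. Lung exceeded liver, the nearest class, by 1.82 on the log2 scale, and without any 1 breed the difference stayed between 1.53 and 1.98. CXCL8 reached 1 FPKM in 8 libraries, as many as there were lungs, so lung alone carried it past the filter on low values. Its spread in the fit rests largely on low values elsewhere, so no p is given for it. Neutrophil markers, 5 of which were in the tables, summed to 30.3 to 132 in lung with a median of 46.0. In spleen they summed to 13.9 to 150 with a median of 26.0, the upper limit being Jinhua and the next spleen at 32.8, and CXCL8 did not pass 0.281. Their part in the lung result was not tested. CXCL2, a neighbour of CXCL8 in gene order and also a ligand of CXCR2, did not share the pattern: it was highest in adipose at 13.3 ± 4.18 (n = 9), then psoas major at 9.42 ± 7.22 (n = 10) and lung at 8.01 ± 5.28 (n = 8), and it had no tissue call. CXCL2 belongs to a group of near-identical copies, as does CCL3L1, so reads may have been divided between copies. CCL3L1 was at 10.46 ± 5.05 in lung, 8.81 ± 3.0 in spleen and 8.10 ± 4.03 in liver, and below a mean of 3.1 elsewhere.

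CCL2, which attracts monocytes, was highest in lung, at 13.6, 31.7 and 141 as lowest, median and highest library. Adipose reached 76.0 and longissimus dorsi 68.7, and the tissues overlapped widely. No difference of lung from spleen, the nearest class, was detected (log2 difference 0.58 ± 0.31, adjusted p = 0.279, limma), which does not show equal levels. CXCL14, found in epithelia and stroma, was highest in ovary at 27.3 ± 17.5, with lung at 20.6 ± 13.0, and ranged in ovary from 2.34 to 59.5. CXCL11, an interferon-induced ligand of CXCR3, did not pass 13.2 in any library. CCL25 and CCL27 passed the filter on low values but had no tissue mean above 0.63.

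Chemokine receptors mostly had their highest log2 mean in spleen, 9 of the 10, but only 2, CCR6 and CCR7, were called for it. CCR6, a receptor of B cells and of a part of T cells and dendritic cells, was the most spleen-restricted gene of the family by its difference from the nearest class. Its 10 spleens held 8.55, 11 and 15.2 as lowest, median and highest. The highest library of any other tissue was the lung of Bamei at 1.34, and outside spleen and lung none passed 0.342. The spleen exceeded lung by 3.09 on the log2 scale. CCR6 reached 1 FPKM in 11 libraries, so the spleen carried it past the filter on low values, and it was listed at 0 in 21. Its spread in the fit rests largely on values at or near 0, so no p is given for it. CCR7 followed with 10.96, 15.5 and 20.7 in spleen against 1.70, 2.64 and 6.34 in lung, without overlap. The difference was 2.04 ± 0.12 (log2, adjusted p = 1.14e-24, limma). B cell markers summed to 145 to 246 in spleen and 3.58 to 30.2 in lung, and T cell markers to 125 to 329 and 30.4 to 129. How far these cells account for CCR6 and CCR7 was not tested.

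The other receptors were less restricted. CCR1, a receptor of monocytes and other myeloid cells, was at 35.7 ± 10.24 in spleen and 20.9 ± 4.62 in lung, and at 4.25 ± 1.25 or less elsewhere, with a log2 difference of 0.67 ± 0.14 between the first 2. CXCR3, a receptor of activated T cells, was at 6.78 ± 1.93 in spleen and 3.28 ± 2.10 in lung. CCR3, CXCR6, CCR9 and CCR10 had spleen means between 1.54 and 3.34. For CXCR6 no difference of spleen from lung was detected (log2 difference 0.12 ± 0.16, adjusted p = 0.908, limma). For CCR10 none of spleen from adipose was detected (0.11 ± 0.12, adjusted p = 0.846, limma). CXCR5, which guides B cells into follicles, was low in spleen at 0.437 to 1.15 and listed at 0 in all hearts, kidneys and ovaries. On the log2 scale with 1 added, its spleen level stood 0.71 above lung, a size that the added 1 keeps small for so low a gene. CXCR5 reached 1 FPKM in 4 libraries and was listed at 0 in 58 of 83. Its spread in the fit rests largely on values at or near 0, so no p is given for it. With 0.1 added in place of 1, the count of called genes rose from 15 to 22. A smaller added value enlarges the differences of any low gene, so this rise cannot be read as particular to the family.

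**Figure D2:**
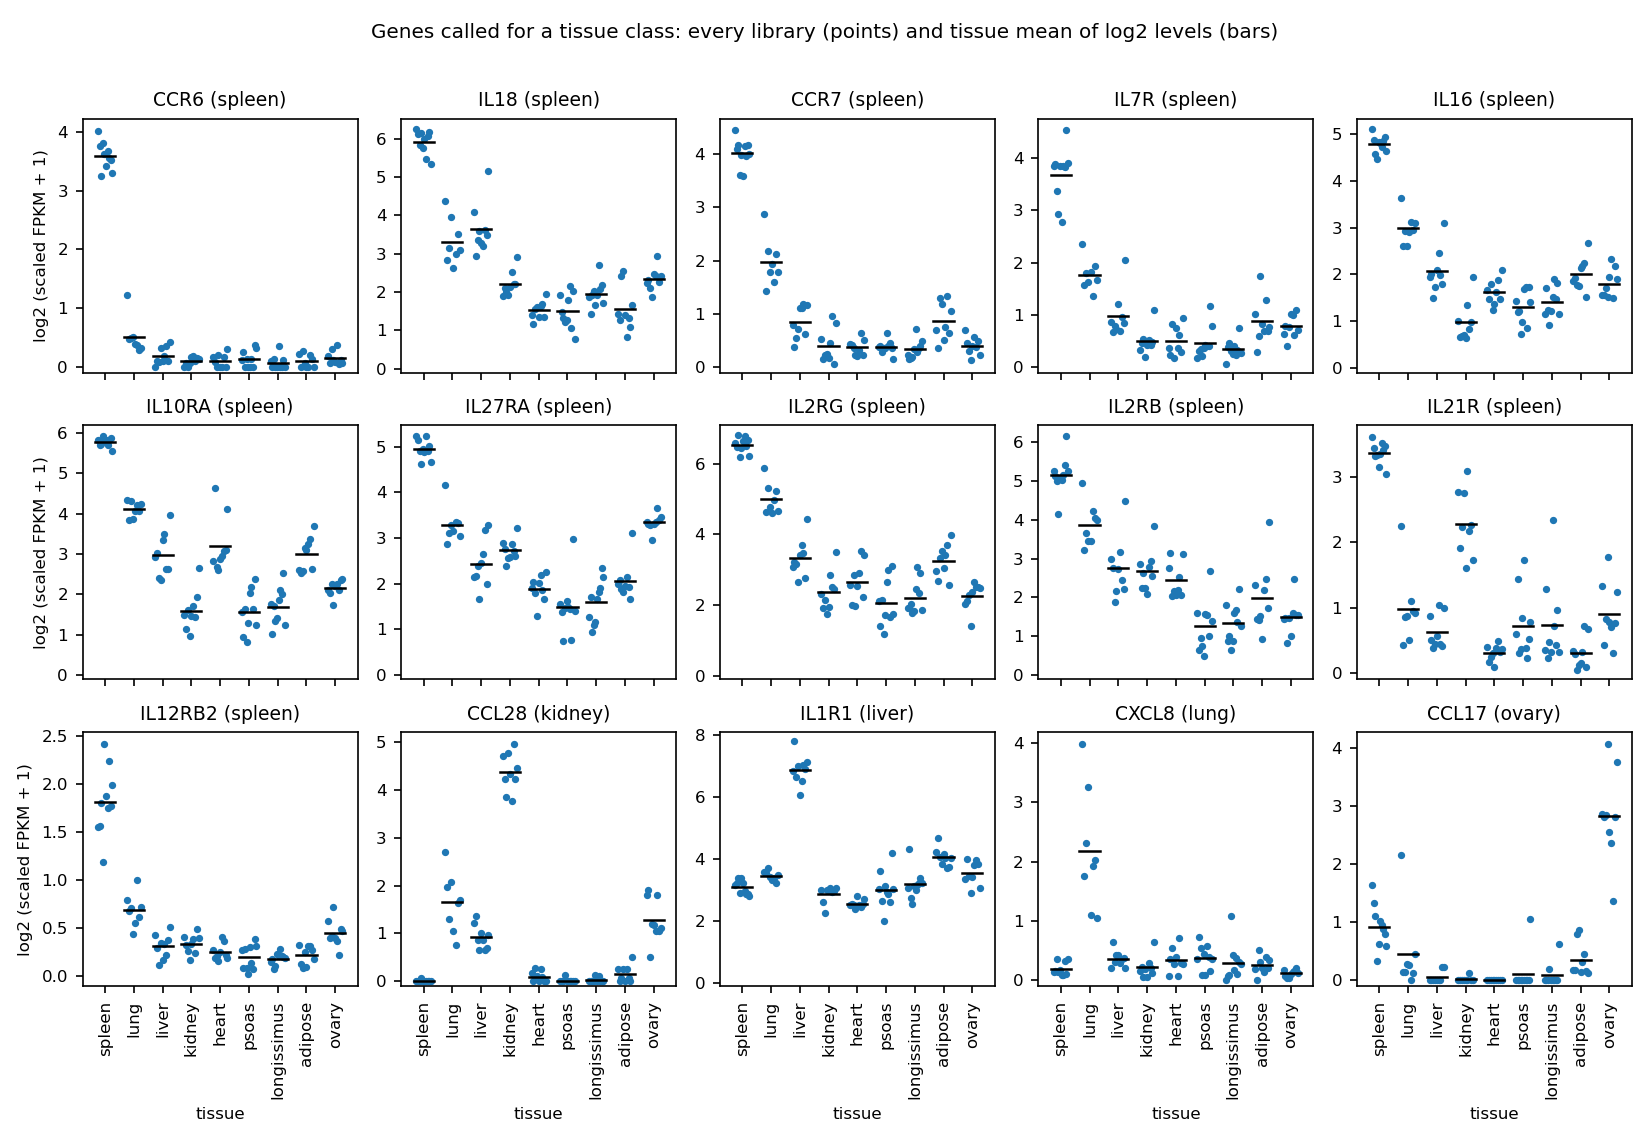
Each panel is 1 of the 15 called genes, with log2 of scaled FPKM plus 1 (vertical, own scale per panel) for every library in 9 tissues (horizontal) and bars at the tissue mean of the log2 values; the called class stands in brackets. For CCR6, CCR7, IL18, CCL28 and IL1R1 no library of another tissue reaches the called tissue, and 1 to 3 libraries do for IL2RB, IL21R, CXCL8 and CCL17.

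Of the 9 interleukins tested, IL18 and IL16 were called, both for spleen. IL18, which inflammasomes release and which drives interferon gamma production, was at 39.4, 64.1 and 75.1 in spleen as lowest, median and highest. Liver was the nearest class with 6.71, 10.22 and 34.9, and lung held 5.22, 7.74 and 19.96. No liver library reached the lowest spleen, and the highest, Rongchang, was far above the other livers. The spleen exceeded liver by 2.33 ± 0.18 (log2, adjusted p = 6.48e-18, limma). IL16, a ligand of CD4 made as a precursor in lymphocytes, was at 21.2, 27.1 and 33.4 in spleen and at 5.09, 6.69 and 11.5 in lung. The log2 difference was 1.74 ± 0.12 (adjusted p = 1.75e-20, limma), and the groups did not overlap.

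IL7, a survival factor for lymphocytes made by stromal cells and hepatocytes, was at 8.49 ± 2.2 in spleen (n = 10) and 8.06 ± 2.63 in liver (n = 9). On this scale no difference between the 2 tissues was detected (log2 difference 0.11 ± 0.11, adjusted p = 0.732, limma). The likeness depends on the scaling, whose divisors had a median of 1.36 in spleen and 0.708 in liver. As deposited, IL7 averaged 11.6 FPKM in spleen. Scaled IL7 was at 2.32 ± 0.521 in lung and 1.55 ± 0.424 in ovary and below a mean of 0.7 in the rest. IL10, an inhibitory cytokine, was at 7.78 ± 2.98 in spleen and 4.25 ± 1.61 in lung. IL1A, an alarm signal, was at 2.24 ± 0.796 in lung and 1.44 ± 0.582 in spleen, and its highest library elsewhere was 0.625. IL33, held in nuclei of stromal cells and released on damage, was at 12.4 ± 6.96 in adipose and 12.2 ± 3.80 in liver. IL15, which supports NK cells and CD8 T cells, was at 8.47 ± 2.99 in adipose and 6.63 ± 1.33 in lung. IL17D was at 17.1 ± 4.71 in adipose and 15.0 ± 3.23 in ovary, and IL17B at 15.0 ± 11.9 in heart and 14.7 ± 7.16 in adipose. Both belong to the IL17 family. As deposited, IL17D was highest in ovary and IL17B in adipose. IL17B in hearts ran from 5.79 to 43.9, and the largest value was that of Large White.

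The filter on low values left 19 genes untested. Of these, 13 were interleukins, 5 were receptor chains and 1 was the chemokine CCL1. IL6, the acute-phase cytokine, was listed at 0 in 76 of the 83 libraries and did not pass 0.0715 in the rest. IL4, a T helper 2 cytokine, was listed at 0 in 70 libraries and reached 0.416, and IL17A was listed at 0 in 78 and reached 0.294. IL22 and IL19 were above 0 in 2 libraries each and IL20 in 1, while IL9 and IL24 were listed at 0 in all 83. IL5 had the highest tissue mean among the untested genes, 0.499 in liver. The single highest library of an untested gene was CCL1 in lung of Bamei at 2.97, with 67 libraries listed at 0. In all, 14 of the 77 genes did not reach 1 FPKM in any tissue library. Absolute depth is unknown, so the counting error of these low values could not be given.

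Interleukin receptor chains gave 8 of the 15 calls, 7 of them for spleen. IL2RG, the common gamma chain shared by the receptors of IL2, IL4, IL7, IL15 and IL21, was at 72.5, 92.3 and 110 in spleen as lowest, median and highest and at 23.4, 28.5 and 57.6 in lung. No lung reached the lowest spleen, and the log2 difference was 1.47 ± 0.15 (adjusted p = 1.55e-13, limma). IL7R, the partner of the gamma chain for IL7, was at 5.81, 13.3 and 22.0 in spleen and at 1.58, 2.34 and 4.09 in lung. The log2 difference was 1.83 ± 0.14 (adjusted p = 2.95e-18, limma), again without overlap.

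IL10RA, the ligand-binding chain for IL10, varied least between breeds, for its level, among the 11 genes called for spleen, at 46.2, 55.1 and 59.9 in 10 spleens. It was at 13.4, 16.6 and 19.4 in lung, and among hearts at 5.04 to 23.9, the highest in Berkshire. The spleen exceeded lung by 1.61 ± 0.17 (log2, adjusted p = 8.41e-13, limma). IL27RA, a receptor chain of T and NK cells, was at 23.7, 29.6 and 36.9 in spleen and at 6.25, 8.32 and 16.8 in lung, with ovary close to lung at 9.21 ± 1.24. It exceeded lung by 1.59 ± 0.14 (log2, adjusted p = 4.43e-15, limma). The remaining calls for spleen were IL2RB (log2 difference 1.14), IL21R (1.11, from kidney) and IL12RB2 (1.11). For IL2RB, the signalling chain for IL2 and IL15, the lowest spleen, Jinhua at 16.7, lay below 3 libraries of other tissues, the lungs of Bamei at 29.7 and Large White at 17.7 and the liver of Rongchang at 21.4. For IL21R, the lowest spleen, Tibetan wild boar at 7.29, lay just below the highest kidney, Large White at 7.52. Kidney was the second tissue of IL21R, at 4.13 ± 1.84 (n = 9), ahead of lung at 1.14 ± 1.10 (n = 8).

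Liver had 1 call in the family, 1.72% of the genes tested, against 4.96% of all genes. The gene called, IL1R1, the signalling receptor for IL1, was at 66.2, 120 and 223 in liver as lowest, median and highest, and at 12, 15.2 and 24.9 in adipose, the nearest class. All other tissues had means between 4.89 and 10.99, and no library outside the liver passed 24.9. Liver exceeded adipose by 2.83 ± 0.16 (log2, adjusted p = 4.36e-26, limma). IL4R, IL6R, IL13RA2 and IL1RAP also had their highest mean in liver without a call, but with FPKM as deposited IL4R was highest in spleen and IL1RAP in adipose. IL4R was at 57.7 ± 19.2 in liver and 39.8 ± 2.83 in spleen, IL6R, the receptor for IL6, at 25.2 ± 5.82 and 13.0 ± 2.24, and IL13RA2, a receptor chain held to act as a decoy, at 26.3 ± 10.7 in liver and 13.1 ± 6.16 in adipose. IL1RAP, the partner of IL1R1, was at 7.75 ± 3.96 in liver and 7.0 ± 4.08 in adipose, with no difference detected (adjusted p = 0.630, limma). The log2 difference was 1.00 ± 0.24 for IL13RA2 and 0.95 ± 0.21 for IL6R. Both fell just short of the size set for a call, with adjusted p of 0.000673 and 0.000178 in limma. These sizes depend on the scaling, whose divisors had a median of 0.708 in liver, 1.36 in spleen and 1.09 in adipose. As deposited, IL6R averaged 17.8 FPKM in liver.

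Several receptor chains were measured in every tissue. IL6ST, the signalling chain shared by the IL6 family, was at 20.4 ± 4.28 to 32.0 ± 9.30 in 8 tissues and at 8.55 ± 1.82 in ovary. IL13RA1 was at 22.7 ± 2.51 in kidney and up to 90.5 ± 15.4 in liver and 79.4 ± 11.2 in heart. IL11RA was highest in heart at 54.1 ± 8.66 and adipose at 53.4 ± 9.83, and lowest in spleen at 9.88 ± 2.97 and lung at 10.8 ± 1.57. IL17RA was at 18.1 ± 3.75 in adipose, 13.0 ± 1.70 in spleen and 12.9 ± 1.83 in lung, and IL17RD, a modulator of growth factor signalling, at 6.90 ± 1.29 in ovary and 6.80 ± 1.92 in adipose. These 5 chains, with IL4R and IL1R1, were at 1 FPKM or more in 83 libraries except IL17RD, which averaged 0.198 in liver and 0.284 in spleen.

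Ligands and receptors were set side by side in 6 pairs with both genes tested, as Spearman's rho over 9 tissue means, a description over tissues that share libraries and scaling. IL7 and IL7R gave 0.900, IL10 and IL10RA 0.833, and CCL19 and CCR7 0.817. IL18 and IL18R1 gave 0.167, CCL25 and CCR9 0.10, and CCL28 and CCR10 0.0167. In single breeds (8 for each pair) rho ran from 0.617 to 0.917 for the IL7 pair, 0.550 to 0.917 for the IL10 pair and 0.250 to 0.917 for the CCL19 pair. It ran from 0.10 to 0.70 for the IL18 pair, -0.667 to 0.783 for the CCL25 pair and -0.383 to 0.407 for the CCL28 pair, so the ranges of the pairs overlapped. IL18 was highest in spleen, whereas IL18R1 was highest in lung at 1.25 ± 0.523, above spleen at 0.675 ± 0.217. CCL28 was highest in kidney, where CCR10 averaged 0.492, and CCR10 was highest in spleen at 1.54 ± 0.881, without a detected difference from adipose. Over the same 9 tissues the summed T cell markers (6 genes) gave a rho of 0.867 with IL7, 0.850 with IL7R, 0.717 with IL10, 0.767 with IL10RA, 0.60 with CCL19 and 0.817 with CCR7. With the genes of the other 3 pairs it was 0.683 for IL18, 0.183 for IL18R1, 0.567 for CCL25, 0.467 for CCR9, 0.20 for CCL28 and 0.517 for CCR10. Other sums lay closer to some of these genes. The B cell sum gave 0.783 with CCL25, 0.733 with CCR10 and 0.90 with IL7R. Macrophage markers gave 0.983 with IL10 and 0.867 with IL10RA, and markers of NK and cytotoxic cells 0.80 with CCL19. Of the marker sums compared, that of T cells was the closest for IL7, CCR7 and CCL28 only. The part of these cells in the pairs was not tested.

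Several of the genes lie next to each other. In the gene order of Sscrofa11.1, 36 of the 77 fell into 13 runs with at most 5 protein-coding genes between neighbours. Neighbours could differ widely in level. CCR9, CXCR6, CCR1 and CCR3, which lie in 1 run, had their highest mean in spleen, from 1.65 for CCR9 to 35.7 for CCR1. For CXCR6 no difference between spleen and lung was detected. In the run IL18RAP, IL18R1, IL1RL2, IL1R1 and IL1R2, IL1R1 was at 123 ± 43.6 in liver while the highest tissue mean of the other 4 was between 0.203 and 1.25. IL10 lies in a run with IL19, IL20 and IL24, of which none had a tissue mean above 0.0193. The T helper 2 run of IL5, IL13 and IL4 had no tissue mean above 0.499.

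Other genes of the pathways were taken from a list of 65 signalling, decoy receptor and related cytokine genes, of which 43 were in the tables and 42 were tested. Of these, 12 or 28.6% were called for a tissue, near the 22.9% of all genes. The calls were 7 for spleen, or 16.7% against 2.89% of all genes, 2 for lung, 1 for liver and 2 for adipose. JAK3, the kinase that binds the gamma chain, was called for spleen (log2 difference from lung 1.53), as were XCR1, a receptor of cross-presenting dendritic cells (1.92), and DOCK2, which drives leukocyte migration (1.22). STAT3, the main factor downstream of IL6ST, was called for liver (1.02 from lung), barely above the size set for a call. Its means were 82.5 in liver and 38.9 in lung. The scaling divisors had a median of 0.708 in liver and 1.53 in lung, so the size of this difference depends on the scaling. The scavenging receptors ACKR3 and ACKR4, which remove chemokines without signalling migration, were both called for adipose, at mean levels of 88.6 and 106 scaled FPKM and log2 differences of 1.52 and 2.36. For ACKR4 lung was the second tissue with a mean of 19.0.

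Between the 2 skeletal muscles, 27 of the genes were tested in 10 breeds with breed as a block. Of these, 3 were called, all lower in psoas major, or 11.1% against 27.7% of all genes called in either direction (15.1% lower in psoas major and 12.7% higher). The median log2 difference was -0.07 over the family and -0.01 over all genes. IL18 was at 0.707, 1.66 and 3.46 in psoas major and at 1.70, 2.79 and 5.59 in longissimus dorsi, and was lower in psoas major in 8 of 10 breeds. The groups overlapped, and the difference within breeds was -0.37 ± 0.10 (log2, adjusted p = 0.0143, limma). CXCL14 was at 1.22, 4.24 and 8.57 against 1.011, 5.68 and 11.01, with -0.32 ± 0.10 (adjusted p = 0.0246, limma), and IL17RA at 1.72, 3.66 and 7.69 against 3.69, 5.08 and 8.06, with -0.31 ± 0.11 (adjusted p = 0.0496, limma). Both were lower in psoas major in 8 of 10 breeds, and both overlapped between muscles. These calls rest on the comparison within breeds: without the breed block the adjusted p was 0.150 for IL18, 0.556 for CXCL14 and 0.222 for IL17RA. IL17RA lost its call without any 1 of 8 breeds, and CXCL14 without Jinhua, Piétrain or Rongchang (adjusted p up to 0.0519, limma).

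**Figure D3:**
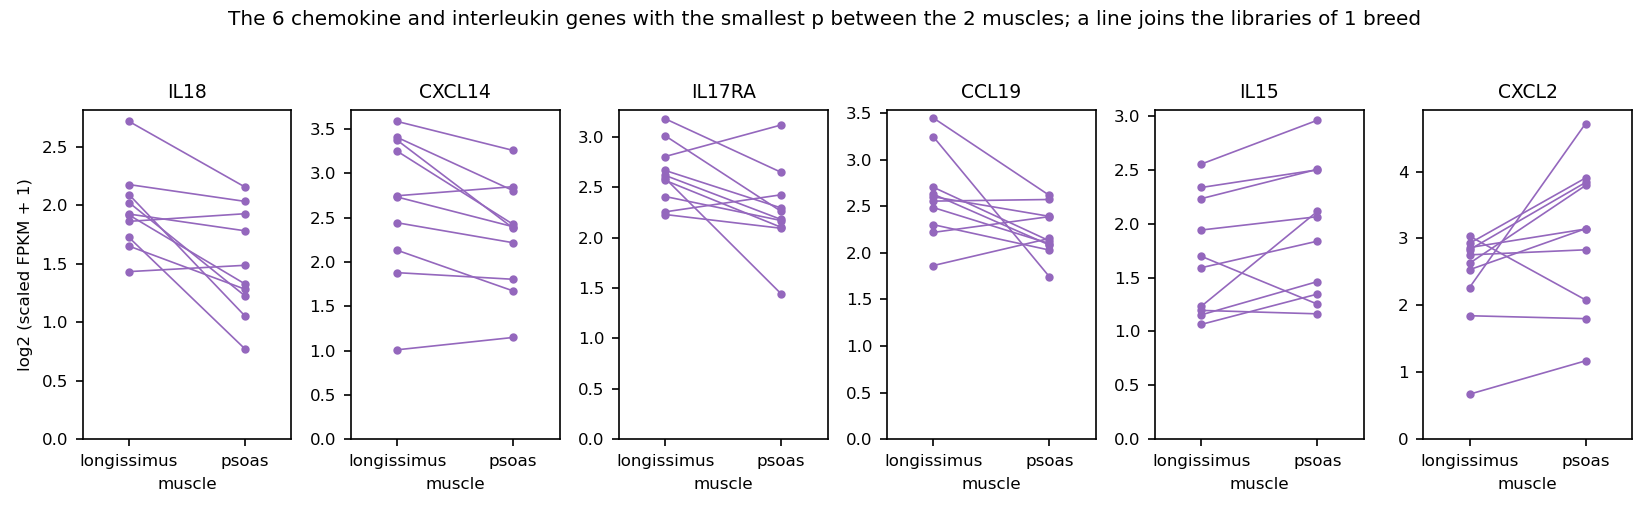
Log2 of scaled FPKM plus 1 (vertical) in longissimus dorsi and psoas major, with 1 line per breed, for the 6 genes with the smallest p; CCL19, IL15 and CXCL2 were not called. Lines for IL18, CXCL14 and IL17RA fall from longissimus dorsi to psoas major in 8 of 10 breeds.

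For breed origin, log2 levels were averaged over 8 tissues in each of 4 Chinese and 5 Western breeds. None of 56 genes passed (0.312% of all genes did), while 8, or 14.3%, had an unadjusted p below 0.05, against 8.30% of all genes. The smallest p belonged to IL18, with breed means of 2.58 to 3.02 in Chinese and 2.32 to 2.53 in Western breeds. The groups did not overlap, and the difference of 0.30 ± 0.10 (log2, Chinese minus Western) had an adjusted p of 0.382 in limma. IL13RA2 came next with 0.42 ± 0.15 (adjusted p = 0.462, limma), its breed groups overlapping.

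Within single tissues none of 315 gene and tissue combinations passed (0.111% over all genes). Lung had the most with an unadjusted p below 0.05, 10 of 48 or 20.8% against 7.99% of all genes, from 3 Chinese and 5 Western breeds. IL18 was at 10.4 to 19.96 in the Chinese lungs and at 5.22 to 7.82 in the Western, without overlap, and differed by 1.04 ± 0.20 (log2, adjusted p = 0.156, limma). CXCL8 was at 8.83 ± 5.89 (n = 3) against 2.27 ± 1.22 (n = 5) and CCL2 at 77.1 ± 56.7 against 26.3 ± 8.84, both with overlap and with adjusted p of 0.448 and 0.502 in limma. IL13RA2 and IL13RA1 went the other way, at 1.35 ± 0.501 against 3.39 ± 1.63 and at 45.2 ± 2.40 against 50.8 ± 2.37. Beside these, the B cell markers summed to 7.96 to 30.2 in Chinese and 3.58 to 8.37 in Western lungs and the neutrophil markers to 30.3 to 132 and 32.5 to 54.9. Their part in the lung values was not tested.

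The unadjusted count was 1 of 30 in heart (7.48% of all genes), 3 of 32 in kidney (8.97%), 1 of 29 in liver (5.74%), 1 of 26 in longissimus dorsi (5.0%), 3 of 37 in ovary (6.09%), 2 of 26 in psoas major (4.75%), 5 of 52 in spleen (5.08%) and 5 of 35 in adipose (8.50%). In kidney, CCL28 was at 25.5 ± 3.82 (n = 4) in Chinese and 16.1 ± 2.91 (n = 5) in Western breeds, without overlap. The log2 difference was 0.65 ± 0.14 (adjusted p = 0.175, limma), and without any 1 breed it stayed between 0.57 and 0.74. IL18 was also higher in Chinese livers, at 18.3 ± 11.3 against 8.66 ± 1.31, and the log2 difference of 0.84 (adjusted p = 0.640, limma) became 0.50 without Rongchang. In heart IL13RA2 had the smallest p (5.77 ± 1.27 against 3.73 ± 0.667, adjusted p = 0.393, limma), in spleen IL33 (5.64 ± 3.37 against 10.19 ± 2.65, adjusted p = 0.902, limma), in ovary CCR3 and in psoas major CCL2. None of these differences held up against the number of genes tested.

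**Figure D4:**
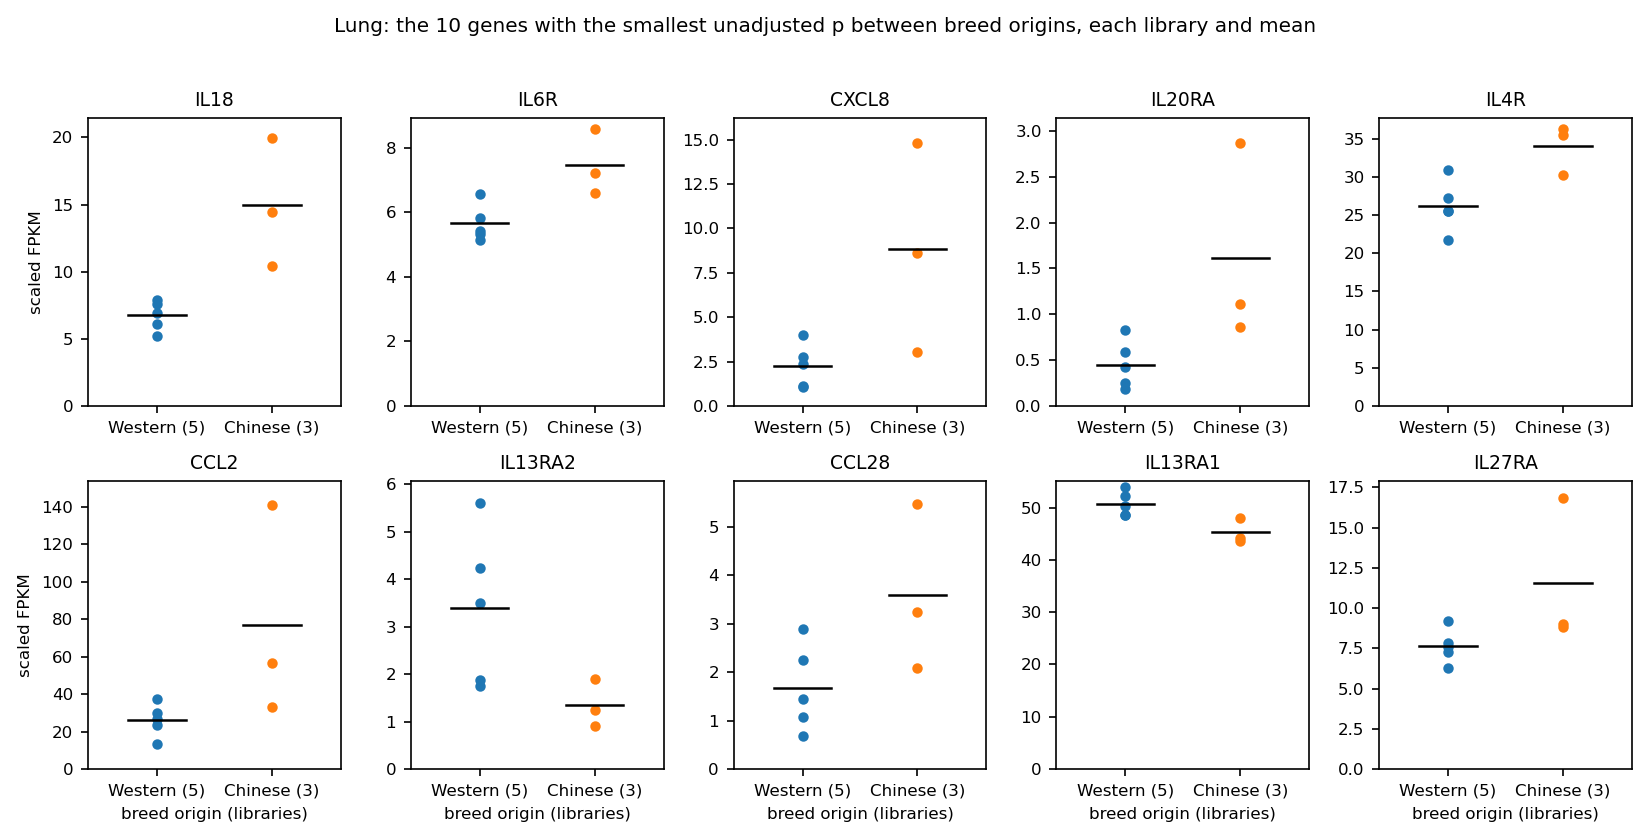
Scaled FPKM (vertical) in each of 8 lungs by breed origin, for the 10 genes with an unadjusted p below 0.05, with bars at the mean. IL18 separates the 3 Chinese from the 5 Western lungs, while in CXCL8 and CCL2 the lowest Chinese lung lies within the Western range.

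The breed with the highest library was also counted in each tissue. This pattern was seen in the values first and is given as a description. Rongchang held the highest library in 122 of 464 combinations of tested gene and tissue, or 26.3%, whereas the other breeds held it in 5.56% to 11.9%. Over all tested genes with a symbol Rongchang held it in 13.4% of 84696 combinations and the other breeds in 8.28% to 13.6%. The genes that were highest in Rongchang in at least 5 of 8 tissues include CCL5 in 8, CXCR6, IL10RA, IL27RA, IL2RB and IL7R in 6, and CCL3L1, IL12RB1 and IL16 in 5. CCL5 in Rongchang was 2.21 to 5.28 times the median of the other breeds. In liver it was at 398 in Rongchang, with a median of 77.7 and a highest of 198 in the other 8, and in spleen at 785, with a median of 228 and a highest of 542 in the other 9. IL2RB was at 21.4 in the Rongchang liver, with a median of 5.06 and a highest of 7.99 in the others.

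Most of these genes are known from T and NK cells, and markers of these cells were raised too, though less often the highest. The T cell markers (6 genes) summed to 1.37 to 3.61 times the median of the other breeds in 8 of 8 Rongchang tissues, and the markers of NK and cytotoxic cells (5 genes) to 1.29 to 3.46 times. Rongchang held the highest T cell sum in 4 of 8 tissues and the highest NK sum in 2. In heart its T cell sum was 27.1, below that of Meishan at 38.8. The B cell markers were above that median in 5 of 8 tissues, the macrophage markers in 6, the neutrophil markers in 7 (up to 2.08 times), the endothelium markers in 7 (up to 1.56 times) and the red blood cell markers in 8 (1.30 to 2.99 times). The shift was therefore not limited to T and NK markers, and the part of any of these cells was not tested. Within tissues, over 83 libraries, deviations of log2 levels from the tissue mean gave a correlation with the T cell sum of 0.859 for IL2RG and 0.809 for CCL5, and of 0.0154 for CXCR5 and 0.0358 for IL1R1. With the NK sum it was 0.845 for IL2RG, 0.869 for CCL5, 0.00133 for CXCR5 and -0.0437 for IL1R1. With the macrophage sum it was 0.683 for IL2RG and 0.316 for CCL5, so these genes did not follow T cell markers alone. The libraries share breed and scaling, so these are descriptions. Other breeds led for single genes: Hampshire in CCL19 (6 of 9 tissues), Large White in IL17B (6), Piétrain in IL17D (5) and Jinhua in IL6ST (5).

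**Figure D5:**
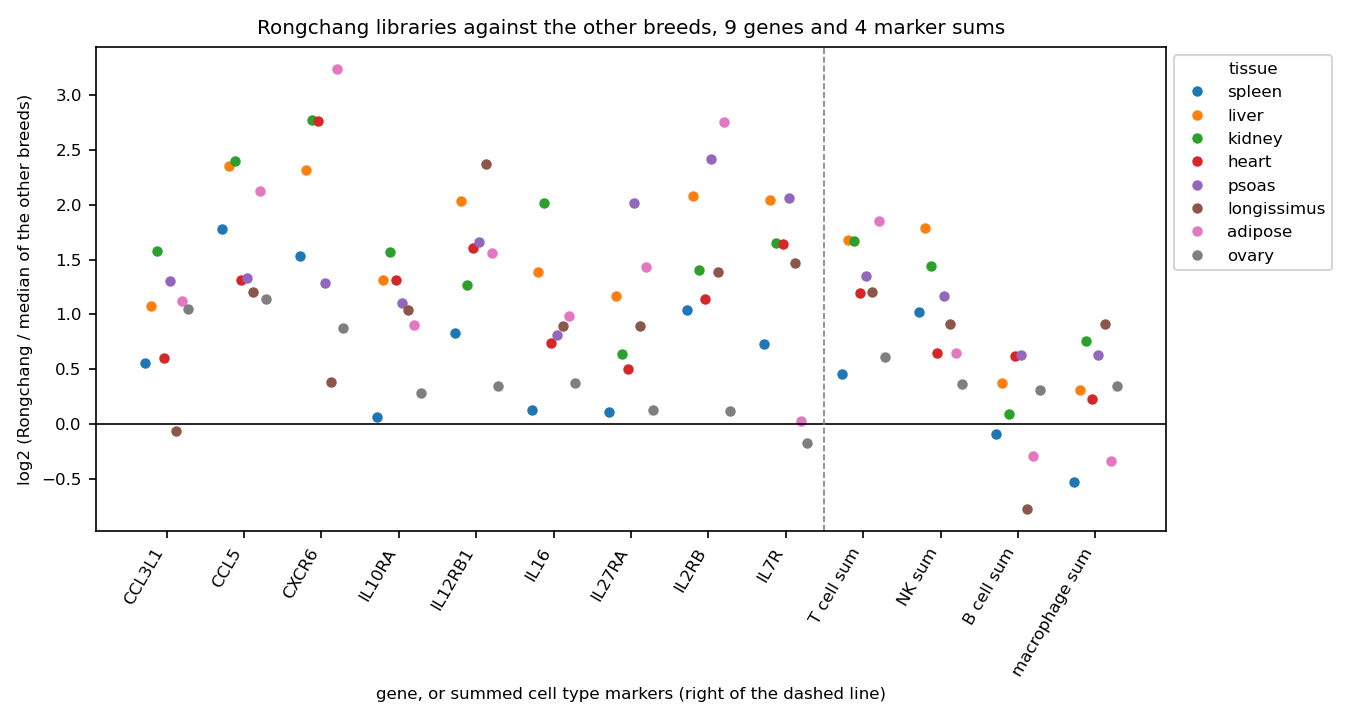
Each point is log2 of the Rongchang library over the median of the other breeds in 1 of 8 tissues (colour), for 9 genes and, right of the dashed line, 4 marker sums; the 9 genes were chosen for this pattern. All 8 points of CCL5 and of the T cell and NK sums lie above 0, whereas B cell and macrophage sums fall on both sides.

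In the mixtures, no gene of the family was above every single tissue of its breed in 8 of 8 breeds, which 132 genes or 1.05% were. Of the family, 33 genes were at 1 scaled FPKM or more in each of the 8 mixtures. On the scale of the 80 libraries of these breeds, the mixtures held CCL5 at 93.0 ± 46.4, IL13RA1 at 43.7 ± 3.88, IL1R1 at 28.4 ± 7.89 and IL2RG at 24.5 ± 6.86, between the lowest and highest tissue means in each case. Against the unweighted mean of the 9 tissues, CXCL14 was 1.77 times as high and IL11RA 0.619 times.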

How the data were processed

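FPKM (fragments scaled to transcript length and library size, from total RNA) were deposited by the authors, made with TopHat and Cufflinks 2.2.1 on Sscrofa10.2 per the submitters' processing notes. The annotation release, strand setting and filters are not given in the sources used here. Strand is unstated, so overlapping genes cannot be told apart. Read counts were not analysed here, so precision comes from the spread between breeds, which may hold technical variation.

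Symbols were matched by gene ID to a list of names, and genes under other symbols are not analysed here. Values of 1 gene of the family are not reported here, though it stays in the counts of genes tested. FPKM were scaled by median ratios anew for the libraries of each fit. Printed levels use the scale of all 83 tissue libraries, except for the mixtures. The filter on low values asked for 1 FPKM in 3 or more libraries. With 1 added, log2 levels entered limma 3.58.1 (trend and robust, two-sided p, Benjamini-Hochberg over all genes of a fit) in R 4.3.3 with statmod 1.5.0. Fold changes on this scale understate those of low genes. Breed was a block for tissues and muscles: deviations of psoas major and longissimus dorsi of 1 breed correlated at 0.322 to 0.534 in all 10 breeds, where 0.174 was the highest between breeds. Scripts were tested on simulated data. Tables and figures used Python 3.11.15, matplotlib 3.10.9, scipy 1.17.1, pandas 2.3.3 and numpy 2.4.6.

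The genes, marker lists, pairs and pathway list were chosen with earlier results of these data known. Named in full are the called genes (at most 8 per tissue, by log2 difference), the genes of the pairs, the 5 with the highest mean, and the 2 with the smallest p where none was called. Gene order is that of RefSeq on Sscrofa11.1, matched by symbol for 77 of 77 genes. Alternatives were FPKM as deposited, quantile normalization, 0.1 in place of 1, other filters, no trend and robust options, no breed block, a log2 difference above 2, both muscles as separate classes, Pearson correlation, leaving out spleen and leaving out each breed.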

Additional observations from a re-analysis of the deposited data

Results flagged for a closer look

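In 150 groups of 8 to 10 libraries of 1 gene and tissue, with a mean of 5 scaled FPKM or more, the gap of the highest or lowest library to its neighbour was compared with Dixon's 95% critical value. Chance flags about 1 in 20 groups when values are independent and normally spread. Here groups share breeds and nearly all the libraries that stood apart were at the top, and the rate that chance gives in these data was not measured. A library stood apart in 30 groups, at the top in 29, and it was Rongchang in 11.

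In Rongchang, CCL5 stood apart in kidney at 189, liver at 398 and adipose at 210, IL2RB in kidney at 13.3, liver at 21.4 and spleen at 69.2, IL2RG in liver at 20.5, IL18 in liver at 34.9 and IL7R in spleen at 22.0. CCL2 stood apart in psoas major at 31.9 and CXCL14 in adipose at 44.2. In the liver of Rongchang the T cell markers summed to 85.8, where the other livers had a median of 26.8. Their part in these values was not tested.

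The 4 values of Bamei were all in lung: IL16 at 11.5, IL27RA at 16.8, IL2RB at 29.7 and IL2RG at 57.6. Its T cell markers, 129, B cell markers, 30.2, and neutrophil markers, 132, were the highest sums of the 8 lungs. Its NK sum of 113 and macrophage sum of 1748 were not the highest. The part of any of these cells was not tested.

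Jinhua stood apart in the monocyte and neutrophil attractants CCL2 in lung at 141 and in longissimus dorsi at 68.7 and CXCL2 in lung at 20.4, and in IL13RA1 in spleen at 61.7. Berkshire stood apart in IL1R1 in liver at 223, longissimus dorsi at 19.1 and adipose at 24.9, and in CXCL2 in psoas major at 25.3. In Large White these were IL17B in heart at 43.9 and IL4R in kidney at 23.0, in Tibetan wild boar IL4R in longissimus dorsi at 28.4 and IL6R in spleen at 18.5, in Hampshire IL11RA in lung at 14.2, and in Piétrain IL17D in heart at 11. The single value at the bottom was IL17D in ovary of Meishan at 7.22.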

How the results depend on the processing

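IL12RB2 fell below a filter at 5 FPKM. Apart from that, the 15 tissue calls each held their direction and significance under every alternative and without any 1 breed, except those that a required log2 difference above 2 removes by construction: it left 5 genes called for a tissue and 3 for spleen, and 1465 of 3936 genes in all. For CXCL8 and CCR6 this significance has the limit given above, since they passed the filter through the tissue of their call. The family's count for a tissue was otherwise 14 to 22, and 17 without Rongchang, given here without the share of all genes at those settings. The muscle comparison depended on the replicate block: without it 0 of 3 genes were called and 645 of 3360 in all. With a filter at 5 FPKM 1 was called, and leaving out 1 breed gave 1 to 4, with 1 without Piétrain, again without that share. Origin and mixtures gave 0 genes of the family throughout. Over all genes, origin counted 347 with a within-breed correlation against 53 over 8 tissues, and 51 with a filter at 5 FPKM against 128 within tissues. The mixture count of 132 was 212 with 7 of 8 breeds, 35 with a minimum of 5, 80 with at least 2 times the highest tissue and 199 without Meishan. With Pearson correlation the pairs gave 0.574 for CCL25 and CCR9, -0.235 for CCL28 and CCR10, 0.750 for IL7 and IL7R, 0.951 for IL10 and IL10RA and 0.467 for IL18 and IL18R1. Without spleen CCL28 and CCR10 gave 0.452 and IL18 and IL18R1 -0.143. The cause was not tested. Unknown depth limits all values near 0.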
